A study of Mus musculus with 2 samples.

Results

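The stromal genes Hpse2, Hmcn1, Sntg1, Angptl1 and Cyp7b1 were followed through every annotated cell type of the mouse small intestine and colon. These 5 genes were chosen by name from an earlier comparison of the same 2 libraries, in which their summed counts in fibroblasts stood higher in the small intestine. Their tissue difference is therefore a description and carries no test, while their joint presence in single cells was not used to choose them. They are 5 of 16098 genes listed for both libraries, out of 18262 listed for the small intestine and 16381 for the colon. Stromal cells of healthy, untreated mouse gut were sequenced one by one in droplets (single-cell RNA sequencing with 10x Genomics 3' chemistry), with 1 library for the small intestine and 1 for the colon. Live cells without CD45, a blood cell protein, and without CD326, an epithelial protein, were sorted after a digestion of 45 minutes for the small intestine and 60 minutes for the colon. No genetic change, agent or time course separates the groups, and the labels do not give the number, strain, sex or age of the mice. The labels of the depositors name fibroblasts without CD81 (CD81- FBs), fibroblasts with CD81 (CD81+ Trophocytes), fibroblasts rich in PDGFRa (PDGFRa-hi SEMFs), smooth muscle cells (SMCs), lymphatic endothelial cells (LECs) and blood endothelial cells (BECs).

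The small intestine library held 9359 cells and 58134526 unique molecular identifiers (UMIs, each marking 1 captured RNA molecule), and the colon library 6018 cells and 40684070 UMIs. The libraries shared 21 cell barcodes. Median UMIs per cell lay between 3652 and 7807 over the 6 types of the small intestine and between 3821 and 7186 in the colon. Levels are CPM, a gene's UMIs scaled to 1000000 UMIs of the cell type, and every interval is a 95% interval for counting error alone, which leaves out differences between animals or dissociations. With 1 library per tissue no test of tissue was possible. Fibroblast labels matched their markers: the 7 fibroblast markers summed to between 16582 and 46087 CPM in the 3 small intestinal fibroblast types and to between 14125 and 27894 CPM in the colon, against 897 CPM in LECs and 477 CPM in BECs of the small intestine and 2298 and 5336 CPM in those of the colon. Of the 5 markers listed for CD81- FBs, Wt1 was at 0 in the CD81- FBs of both libraries. The small intestinal SMC label did not keep to smooth muscle markers. Its cells held 22986 CPM of the fibroblast markers and 8738 CPM of the 6 smooth muscle markers, against 7238 and 13244 CPM in colon SMCs. In the colon 1751 cells held a Y-linked UMI without Xist and 2700 held Xist alone, whereas the small intestine table did not list Xist and 6896 of its cells held a Y-linked UMI.

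The 5 genes encode unrelated proteins. Hpse2 encodes heparanase 2, a secreted relative of heparanase that binds heparan sulfate without cutting it, and its loss in people causes a bladder and facial disorder of nerve and muscle. Hmcn1 encodes hemicentin 1, a very long extracellular matrix protein of the immunoglobulin superfamily. Sntg1 encodes gamma-1 syntrophin, an adaptor that binds the dystrophin complex under the cell membrane. Angptl1 encodes a secreted angiopoietin-like protein. Cyp7b1 encodes an oxysterol 7-alpha-hydroxylase, an enzyme of bile acid synthesis that also makes oxysterols that guide lymphocytes through the receptor GPR183.

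The start regions of 3 of the 5 genes are shown because the genes stood together in the same tissue. Each sequence runs from 250 bases before to 50 bases after the RefSeq start site of build GRCm38.p6, 5′ to 3′ on the gene's own strand. Capitals mark a match to 1 of 8 motifs searched on both strands. The motifs were the TATA box TATAAA, the GC box GGGCGG, the AP-1 site TGANTCA, the forkhead site TGTTTAC, the GATA site AGATAA, the TCF/LEF site CTTTGAT, the E-box CAGCTG and the nuclear receptor half-site AGGTCA. The windows are chr19:43388306-43388605 on the minus strand for Hpse2, chr1:150993386-150993685 on the minus strand for Hmcn1 and chr1:156838773-156839072 on the plus strand for Angptl1.
Hpse2: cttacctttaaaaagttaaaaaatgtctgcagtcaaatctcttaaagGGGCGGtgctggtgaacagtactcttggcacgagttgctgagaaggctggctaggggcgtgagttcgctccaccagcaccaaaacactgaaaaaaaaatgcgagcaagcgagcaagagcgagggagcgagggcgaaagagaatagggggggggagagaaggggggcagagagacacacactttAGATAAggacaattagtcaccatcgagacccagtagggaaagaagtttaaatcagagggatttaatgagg
Hmcn1: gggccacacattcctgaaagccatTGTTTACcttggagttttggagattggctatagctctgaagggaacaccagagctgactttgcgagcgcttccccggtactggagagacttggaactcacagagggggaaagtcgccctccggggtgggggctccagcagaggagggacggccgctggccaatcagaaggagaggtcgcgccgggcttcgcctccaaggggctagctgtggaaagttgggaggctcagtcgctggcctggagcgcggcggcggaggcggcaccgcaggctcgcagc
Angptl1: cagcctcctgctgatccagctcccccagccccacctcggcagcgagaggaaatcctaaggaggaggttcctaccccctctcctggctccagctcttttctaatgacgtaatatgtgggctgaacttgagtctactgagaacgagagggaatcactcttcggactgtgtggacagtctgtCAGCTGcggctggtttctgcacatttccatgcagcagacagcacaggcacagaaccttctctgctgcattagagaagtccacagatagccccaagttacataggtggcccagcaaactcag

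No motif was found in more than 1 of these 3 windows. Hpse2 held the GC box 203 bases before its start and the GATA letters 20 bases before it, which 35.7% and 11.2% of all 32851 RefSeq promoters of the same length hold. Hmcn1 held the forkhead letters 226 bases before its start, as 3.65% of promoters do, and Angptl1 the E-box 71 bases before its start, as 16.3% do. The other 4 motifs, held by 13.6% (TATA box), 7.81% (AP-1), 3.73% (TCF/LEF) and 16.3% (half-site) of promoters, had no match in these windows. Base composition also differed: the GC share was 63.3% with 19 CpG in Hmcn1, 54.3% with 6 in Angptl1 and 48.7% with 10 in Hpse2, against medians of 52.7% and 7 over all promoters. A match is a string of letters and was not tested as a binding site. The genes lie apart, Hpse2 on chromosome 19 (42786539 to 43388355), Cyp7b1 on chromosome 3 (18071950 to 18243338), and Sntg1 (8361475 to 9299878), Hmcn1 (150562524 to 150993435) and Angptl1 (156838562 to 156861078) on chromosome 1, in GRCm38 coordinates of the GENCODE annotation.

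In pooled fibroblasts all 5 genes were more than 4-fold higher in the small intestine, beside 1.92% of the 13307 genes whose fibroblast UMIs, added over the libraries, reached 100. This count is fixed by how the genes were chosen. Over all those genes the median log2 ratio was 0.17. Hmcn1 had 490 CPM (483 to 496) in small intestinal and 7.14 CPM (6.32 to 8.04) in colon fibroblasts, a log2 ratio of 6.10. Angptl1 had 242 against 9.84 CPM, a log2 ratio of 4.62, and Hpse2 had 2409 against 130 CPM, a log2 ratio of 4.21. For Sntg1 the levels were 325 and 19.0 CPM, with a log2 ratio of 4.09, and for Cyp7b1 240 and 24.8 CPM, with a log2 ratio of 3.27. Of the 5, Cyp7b1 lay nearest to the 4-fold line, and among all genes tested the ranks from the highest ratio ran from 4 for Hmcn1 to 59 for Cyp7b1.

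**Figure D1:**
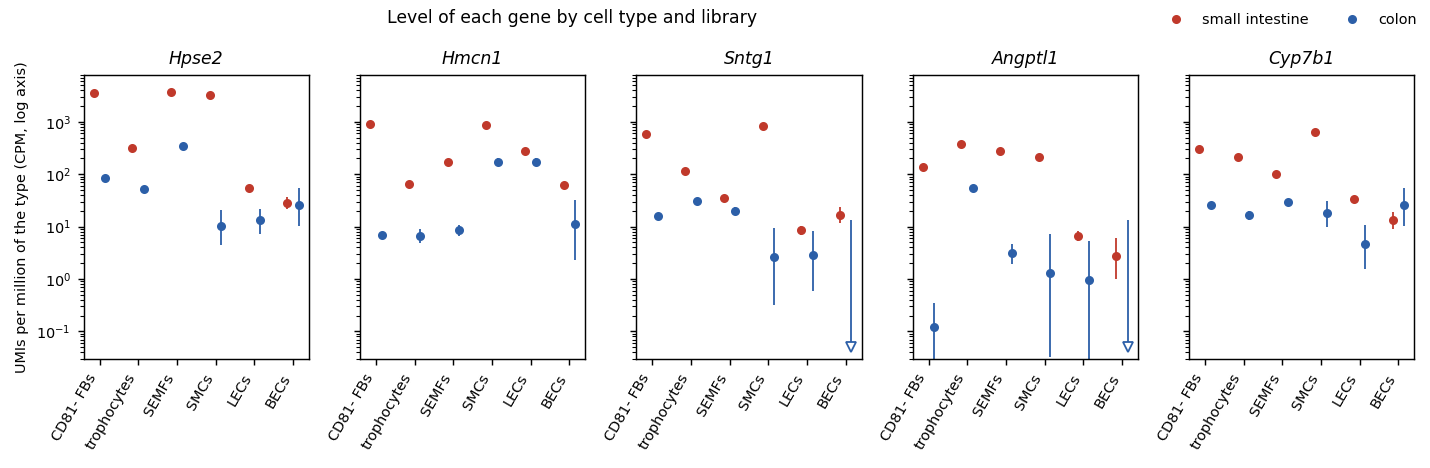
Level of each gene (CPM, log axis) in 6 cell types of the small intestine (red) and the colon (blue), 1 library each. Points are summed counts, bars exact Poisson 95% intervals, and open triangles mark a count of 0. Hpse2 lies above 3000 CPM in 3 small intestinal types, and Angptl1 has 0.121 CPM in colon CD81- FBs.

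Heparanase 2 was the most abundant of the 5 by counts and was close to universal in 3 small intestinal labels. Hpse2 had 3554 CPM in CD81- FBs, 3693 CPM in SEMFs and 3278 CPM in SMCs of the small intestine, and 316 CPM in trophocytes. In the colon it had 86.5 CPM in CD81- FBs, 340 CPM in SEMFs, 51.7 CPM in trophocytes and 10.4 CPM in SMCs. SEMFs led in both libraries, and the small intestinal trophocytes, the lowest of that library's fibroblasts, lay below the colon's SEMFs. An Hpse2 UMI was found in 97.6% of small intestinal CD81- FBs (97.0 to 98.2), with a median of 19 UMIs in those cells, and in 21.4% of colon CD81- FBs (20.05 to 22.74), with a median of 2. Small intestinal SEMFs held it in 96.9% of cells and colon SEMFs in 41.0%. Endothelial cells served as the comparison type for background, and the source of their Hpse2 UMIs was not tested: 4.48% of small intestinal LECs (median 4118 UMIs per cell) and 5.92% of BECs (median 3652) had an Hpse2 UMI, against a median depth of 6977 UMIs in CD81- FBs. At an equal 3000 UMIs per cell the share was 96.0% of small intestinal CD81- FBs and 3.39% of LECs, and 13.8% and 1.50% in the colon. The log2 ratio between the libraries was 5.36 (5.30 to 5.42) in CD81- FBs, 3.44 (3.38 to 3.50) in SEMFs and 2.61 (2.45 to 2.78) in trophocytes. In the colon's falling order of trophocytes, BECs, LECs and SMCs, neighbours did not differ in Hpse2 beyond counting error. Trophocytes (46.2 to 57.6 CPM) still had an interval separate from those of LECs (7.18 to 22.0) and SMCs (4.47 to 20.4). The BEC level rested on 7 UMIs.

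Of the 600 Hpse2 UMIs of small intestinal LECs, 59 came from 1 cell. The 28 LECs with 3 or more of the 5 genes held 72.3% of them, with 24774 CPM of the fibroblast markers against 312 CPM in the other 2470 LECs, and a median of 9775 UMIs per cell against 4106. Whether these were doublets was not tested.

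Hemicentin 1 was the gene with the widest range of types. Hmcn1 had 909 CPM in small intestinal CD81- FBs and 883 CPM in SMCs, a pair not separated beyond counting error, then 283 CPM in LECs, 171 CPM in SEMFs, 65.5 CPM in trophocytes and 61.1 CPM in BECs. Colon fibroblasts had 6.84 CPM in CD81- FBs, 8.47 CPM in SEMFs and 6.75 CPM in trophocytes, and neighbours in that order did not differ beyond counting error. Colon SMCs and LECs each had 174 CPM and thus held more Hmcn1 than any colon fibroblast. In cells, 88.1% of small intestinal CD81- FBs (86.8 to 89.3) and 3.33% of those of the colon (2.77 to 3.97) had an Hmcn1 UMI. LECs held it in 56.2% of cells in the small intestine and 47.5% in the colon, shares far over those of the other 4 genes in LECs, which were 8.33% or lower. The log2 ratio between libraries was 7.05 (6.84 to 7.28) in CD81- FBs but 0.70 (0.49 to 0.93) in LECs and 2.35 (2.10 to 2.61) in SMCs. An antisense transcript inside the gene, Gm20631, had 8.92 CPM in small intestinal and 0.130 CPM in colon fibroblasts, and the counting's use of strand is not given in the sources used here.

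Gamma-1 syntrophin was found in only part of the small intestinal CD81- FBs. Sntg1 had 574 CPM in small intestinal CD81- FBs and 849 CPM in SMCs, and 115 CPM in trophocytes and 35.9 CPM in SEMFs. In the colon the 3 fibroblast types had 15.7, 30.6 and 19.9 CPM in the order CD81- FBs, trophocytes and SEMFs. A Sntg1 UMI was found in 53.1% of small intestinal CD81- FBs (51.2 to 55.0), with a median of 5 UMIs in those that had it and up to 104 in 1 cell, against 5.65% of colon CD81- FBs. The tenth of the small intestinal CD81- FBs with the most Sntg1 held 54.4% of its UMIs there. That share was 45.0% for Angptl1, 42.5% for Cyp7b1, 36.6% for Hmcn1 and 32.6% for Hpse2. At equal depth 44.5% of these cells had a Sntg1 UMI, 46.7% one of Cyp7b1 and 28.8% one of Angptl1. Hmcn1 was found in 76.2% and Hpse2 in 96.0%, so presence in only part of the cells was not particular to Sntg1. The log2 ratio of Sntg1 between the libraries was 5.19 (5.04 to 5.34) in CD81- FBs, 1.91 (1.70 to 2.14) in trophocytes and 0.85 (0.55 to 1.16) in SEMFs. In SEMFs at equal depth 3.59% of small intestinal and 4.53% of colon cells had a Sntg1 UMI, so that the shares ran against the CPM and no order is read from them.

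Angptl1, the secreted angiopoietin-like gene, followed another order of types. It had 370 CPM in small intestinal trophocytes, 274 CPM in SEMFs, 209 CPM in SMCs and 137 CPM in CD81- FBs, each step beyond counting error. Colon trophocytes had 55.4 CPM, colon SEMFs 3.09 CPM, and colon CD81- FBs 0.121 CPM, which was 3 UMIs in 3631 cells. Trophocytes thus led in both libraries, and 353 of the 379 Angptl1 UMIs of colon fibroblasts lay in them. An Angptl1 UMI was found in 76.1% of small intestinal trophocytes (74.1 to 78.0) and 18.5% of colon trophocytes (16.0 to 21.2), against 46.9% and 0.0826% of CD81- FBs. The log2 ratio was 10.14 in CD81- FBs, with an interval from 8.59 to 12.42 that the 3 colon UMIs set, 6.47 (5.88 to 7.13) in SEMFs and 2.74 (2.58 to 2.90) in trophocytes. LECs and BECs were low in both libraries, with 6.69 and 2.74 CPM in the small intestine. Angptl1 lies inside Ralgps2 on the opposite strand. Ralgps2 had 16.2 CPM in small intestinal and 3.30 CPM in colon fibroblasts.

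Cyp7b1, the oxysterol hydroxylase, had its highest level in the SMC label. It had 647 CPM in small intestinal SMCs, 304 CPM in CD81- FBs, 214 CPM in trophocytes and 102 CPM in SEMFs. In the colon it had 29.4 CPM in SEMFs (25.7 to 33.6), 26.0 CPM in BECs, 25.6 CPM in CD81- FBs, 18.1 CPM in SMCs, 16.3 CPM in trophocytes (13.3 to 19.8) and 4.69 CPM in LECs. Neighbours in that order from SEMFs to trophocytes did not differ beyond counting error, though SEMFs and trophocytes had separate intervals, and LECs lay below trophocytes by a log2 ratio of 1.80 (0.53 to 3.45). A Cyp7b1 UMI was found in 66.4% of small intestinal (64.6 to 68.1) and 12.9% of colon CD81- FBs (11.8 to 14.0), and in 8.33% and 2.30% of LECs. Its log2 ratio was 3.57 (3.45 to 3.69) in CD81- FBs, 3.71 (3.43 to 4.01) in trophocytes and 1.79 (1.57 to 2.02) in SEMFs. BECs gave the only type in which a level was lower in the small intestine, 13.2 against 26.0 CPM, but the colon value was 7 UMIs and the interval of the log2 ratio ran from -2.19 to 0.46. Colon BECs held no UMI of Sntg1 or Angptl1 in 53 cells, which, at a limit of 3 counts, allows a share of up to 5.66% of cells with a UMI.

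Counted by type, 5 of 5 genes passed 4-fold in CD81- FBs, where 1.91% of genes did, and 4 of 5 in trophocytes, where 1.7% did and Sntg1 did not. In SEMFs 3 of 5 passed, beside 2.19% of genes, with Sntg1 and Cyp7b1 below the line. In SMCs 5 of 5 passed, beside 4.37% of genes. In LECs 2 of the 3 genes with enough UMIs passed, Hpse2 at a log2 ratio of 2.03 (1.27 to 2.91) and Cyp7b1 at 2.85, beside 2.17% of genes. The LEC value of Hpse2 rested on few cells. Without the 28 small intestinal and 1 colon LECs that had a UMI of 3 or more of the 5 genes, it was 15.2 against 11.4 CPM, a log2 ratio of 0.42 (-0.43 to 1.40). Without the cell with the most Hpse2 UMIs in each library it was 48.3 against 5.69 CPM, a log2 ratio of 3.09 (1.95 to 4.54), on 6 colon UMIs. All these comparisons share the libraries that the choice of genes used. CD81- FBs and SMCs held the highest ratios for Hpse2 and Sntg1, and trophocytes the lowest for Hpse2, Hmcn1 and Angptl1 among the 3 fibroblast types.

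**Figure D2:**
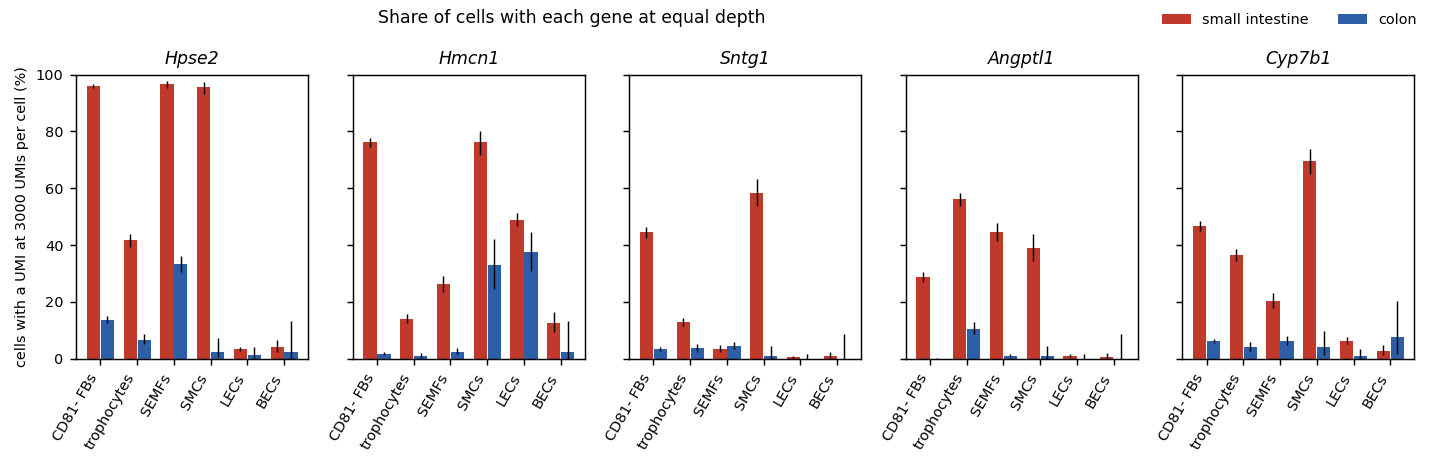
Share of cells with at least 1 UMI of each gene after each cell was thinned to 3000 UMIs, by cell type, in the small intestine (red) and the colon (blue); bars are shares and lines exact 95% binomial intervals. Hpse2 is near 96% in 3 small intestinal types, and Hmcn1 is the gene found in LECs of both libraries, at 49.0% and 37.5%.

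The SMC label needs its own values, since its cells differ in makeup between the libraries. Of the 468 small intestinal SMCs, 458 had UMIs of 3 or more of the 7 fibroblast markers, as had 123 of 125 colon SMCs. The libraries differed in the summed level of these markers, 22986 against 7238 CPM. Adamdec1, a protease of gut fibroblasts, had 9211 CPM in small intestinal and 1242 CPM in colon SMCs. The 10 small intestinal cells with fewer fibroblast markers had 642 CPM of Hpse2 (397 to 981) and 30.6 CPM of Hmcn1, from 21 UMIs and 1 UMI. The 16 cells without an Adamdec1 UMI had 613 CPM of Hpse2 (440 to 832), 239 CPM of Sntg1 and 254 CPM of Cyp7b1. The 393 cells with 3 or more smooth muscle markers had 3213 CPM of Hpse2, 873 CPM of Hmcn1 and 666 CPM of Cyp7b1. Hpse2 was thus lower in cells with few fibroblast markers than in the label as a whole, on few UMIs. The log2 ratios over colon SMCs were 8.31 (7.33 to 9.52) for Hpse2, 8.36 (6.50 to 11.40) for Sntg1 on 2 colon UMIs, 7.33 (4.85 to 12.64) for Angptl1 on 1 colon UMI, 5.16 (4.41 to 6.03) for Cyp7b1 and 2.35 for Hmcn1. The part of the fibroblast markers in these ratios was not tested.

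Detection of the genes in the same cell was compared after thinning every cell to 3000 UMIs, because cells with a gene were deeper: in small intestinal CD81- FBs, cells with an Hpse2 UMI had a median of 7066 UMIs and those without one 4280. Thinning kept 2696 of 2823 of these cells. Of them, 66.9% (65.1 to 68.7) had 3 or more of the 5 genes and 123 cells (4.56%) had all 5, close to the 118 cells that the product of the 5 single shares gives. The SMC label had 3 or more genes in 80.8% of its cells and all 5 in 12.6%. SEMFs had 3 or more in 23.2% and trophocytes in 18.1%, and all 5 genes were found in 2 and 5 cells of these types. In the colon no cell of any of the 6 types had all 5, and 3 or more were found in 0.472% of SEMFs, in 0.116% of CD81- FBs and in no cell of the other 4 types. The commonest set in small intestinal CD81- FBs was Hpse2 with Hmcn1 alone, in 394 cells (14.6%), followed by Hpse2, Hmcn1, Sntg1 and Cyp7b1 together in 356 cells (13.2%).

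**Figure D3:**
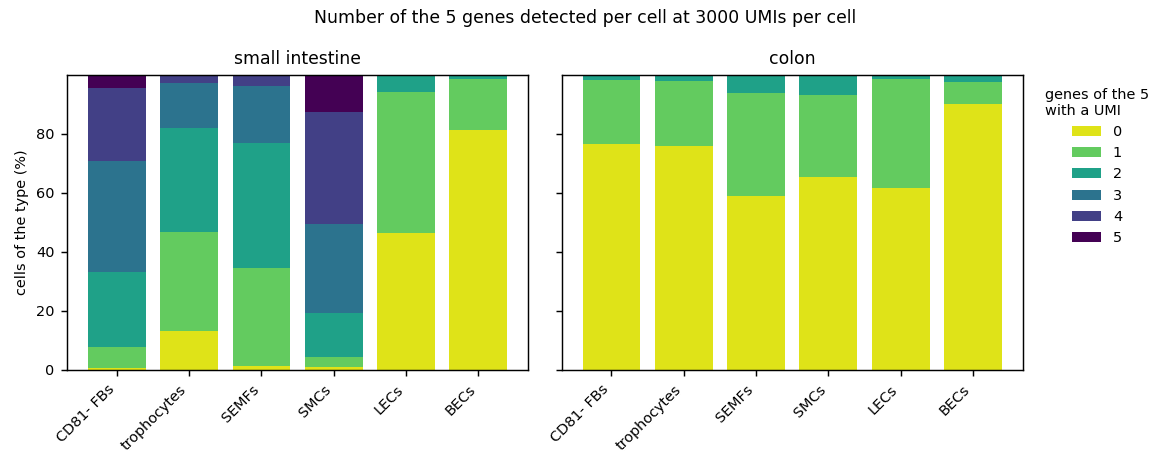
Number of the 5 genes with a UMI per cell after thinning to 3000 UMIs, as stacked shares of the cells of each type, for the small intestine (left) and the colon (right). Darker bands mark more genes: 66.9% of small intestinal CD81- FBs have 3 or more, against 0.116% of colon CD81- FBs.

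Within small intestinal CD81- FBs, a measure the choice of genes did not use, Hpse2, Hmcn1 and Sntg1 went together. An Hmcn1 UMI was found in 77.6% (75.9 to 79.2) of the 2589 cells with Hpse2 and in 43.0% (33.5 to 52.9) of the 107 cells without it. Sntg1 was found in 45.2% (43.2 to 47.1) of cells with Hpse2 and in 29.9% (21.4 to 39.5) of those without. For Sntg1 by Hmcn1 the shares were 48.1% (45.9 to 50.3) of 2055 cells and 33.2% (29.6 to 37.0) of 641 cells. The intervals of each of these 3 pairs do not overlap. When 719 cells with at least 2 UMIs of an endothelial or smooth muscle marker were left out, the gap in Sntg1 by Hpse2 shrank from 15.2 to 5.42 percentage points. Across the 2696 cells Spearman's rho was 0.42 between Hpse2 and Hmcn1, 0.19 between Hmcn1 and Sntg1 and 0.15 between Hpse2 and Sntg1, a description over cells of 1 library.

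Angptl1 stood outside that trio. It was found in 28.4% (26.7 to 30.2) of cells with Hpse2 and in 38.3% (29.1 to 48.2) of cells without, and without thinning the difference of -9.89 percentage points turned to 5.20. By Hmcn1 its shares were 28.5% and 29.8%, by Sntg1 27.1% and 30.2%, with overlapping intervals in each case. Spearman's rho of Angptl1 over the same thinned cells was -0.095 with Hpse2, -0.044 with Hmcn1, -0.041 with Sntg1 and 0.0049 with Cyp7b1. Cyp7b1 was found in 47.0% (45.1 to 49.0) of cells with Hpse2 and 39.3% (30.0 to 49.2) without, in 47.5% of cells with Hmcn1 and 44.1% without, in 48.0% with Sntg1 and 45.7% without, and in 46.8% with Angptl1 and 46.7% without, again with overlapping intervals. Of the 10 pairs, 7 had the second gene more often in cells with the first, and 3 of those had separate intervals.

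**Figure D4:**
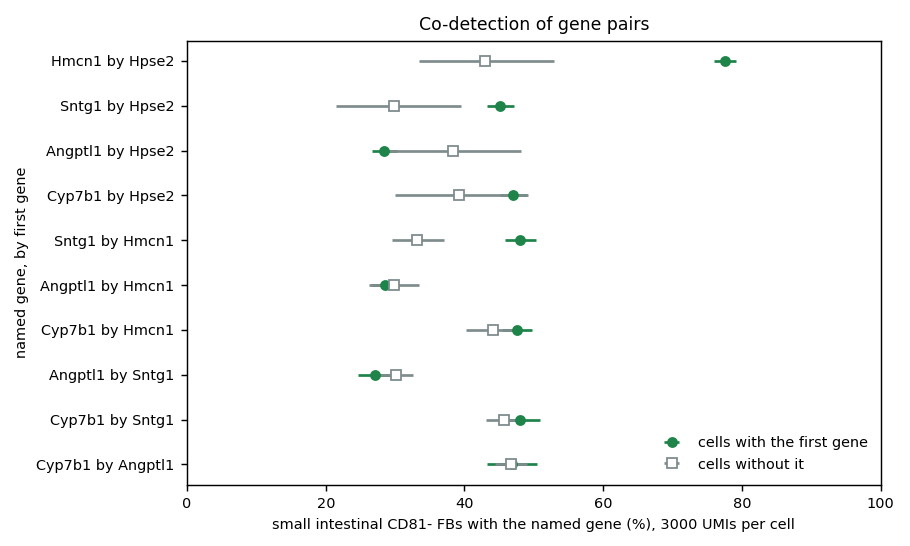
Share of small intestinal CD81- FBs with the named gene among cells with (filled green) and without (open grey) the first gene, for the 10 pairs at 3000 UMIs per cell; lines are exact 95% binomial intervals. Hmcn1 by Hpse2 shows the widest gap, 77.6% against 43.0%, and Cyp7b1 by Angptl1 shows almost none.

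The pairs were also measured in the other small intestinal fibroblast types. In small intestinal trophocytes Angptl1 was found in 61.8% (58.1 to 65.5) of cells with Cyp7b1 and 52.7% (49.9 to 55.6) of cells without it, but in 45.4% (39.3 to 51.7) of cells with Hmcn1 and 57.8% (55.3 to 60.2) of cells without. The trophocytes with Hmcn1 had 0.573 UMIs of the 6 lymphatic endothelial markers per 3000 and those without 0.094, and small intestinal LECs had 283 CPM of Hmcn1 and 6.69 CPM of Angptl1. Without the 77 cells that had at least 2 UMIs of an endothelial or smooth muscle marker the shares of Angptl1 were 46.3% (39.9 to 52.8) and 58.0% (55.5 to 60.5). Sntg1 there was found in 10.2% (8.13 to 12.5) of cells with Hpse2 and 14.8% (12.8 to 17.1) without. In SEMFs Hmcn1 was found in 26.8% (24.0 to 29.7) of 967 cells with Hpse2 and 8.57% (1.80 to 23.1) of 35 cells without. Spearman's rho over the thinned SEMFs was 0.17 between Hpse2 and Hmcn1 and -0.20 between Hpse2 and Angptl1. Whether pairs differ between the fibroblast types was not tested.

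The share of UMIs from long genes moved with these detections. Genes spanning 200 kb or more, the 5 left out, gave a median of 11.5% of UMIs in thinned CD81- FBs with Hmcn1 and 9.77% in those without, 11.2% and 8.03% by Hpse2, 11.5% and 10.8% by Sntg1, 11.9% and 10.5% by Cyp7b1, and 11.2% in both groups by Angptl1. Compared within 3 equal classes of cells by that share the gap in Hmcn1 by Hpse2 was 29.2 percentage points, against 34.6 over all cells, and that in Sntg1 by Hmcn1 was 13.2, against 14.8. Cells with Hmcn1 had 7.23 UMIs of the 7 trophocyte markers per 3000 and those without 10.6, while cells with Angptl1 had 9.55 and those without 7.43.

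Genes whose shares differed most between CD81- FBs with and without each of the 5 were named as a description. With Hpse2 these were Adgrl3, an adhesion receptor (66.9% against 23.4%), Negr1 (72.6% against 35.5%), Hmcn1, the heparan sulfate proteoglycan Gpc6 (81.2% against 47.7%) and the matrix gene Tnc (71.5% against 38.3%). With Hmcn1 they were Adgrl3 (70.9% against 46.8%) and Pde1c (40.0% against 16.7%) on the higher side, and Dusp1, an immediate early phosphatase, on the lower side (36.1% against 55.7%). With Sntg1 the gene most often added was Lrat, which stores retinol as its ester (47.5% against 33.2%), and the gene most often missing was the complement gene C3 (55.4% against 70.4%). Cells with Angptl1 had Mgp, a matrix inhibitor of calcification (88.7% against 70.0%), and C3 (76.3% against 58.6%) more often, and Pde1c less often (23.6% against 38.9%). Cells with Cyp7b1 differed least, with Dkk2, a secreted Wnt inhibitor, at 29.1% against 18.5%.

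Over the 12 levels of the 6 types in both libraries, the gene most like Hpse2 by Pearson's r of log2(CPM + 10) was Gm34517 (0.951), followed by Trim44 (0.940) and 1110051M20Rik (0.936). For Hmcn1 they were Ulk2 (0.906), Lta4h (0.893) and 2610507B11Rik (0.871), for Sntg1 Il1rl2 (0.921), Adamts10 (0.920) and Cyp7b1 (0.919), for Angptl1 Plcxd3 (0.922) and Crtc3 (0.907), and for Cyp7b1 Stard3nl (0.937), Shroom3 (0.932) and Sh3rf1 (0.929). The search covered 6083 genes, and the levels share 2 libraries. A high r does not mean a tissue difference of like size. In small intestinal and colon CD81- FBs Trim44 had 84.7 and 56.1 CPM, Ulk2 109 and 56.7 CPM, and Stard3nl 53.5 and 36.1 CPM. Larger differences were seen for Shroom3, with 161 and 8.86 CPM, and Plcxd3, with 121 and 17.5 CPM. Among the 5 genes themselves r ran from 0.445 for Angptl1 with Hmcn1 to 0.919 for Cyp7b1 with Sntg1. Gm34517 had 37.9, 46.8 and 50.2 CPM in small intestinal CD81- FBs, SEMFs and SMCs, 2.53 CPM in trophocytes, and at most 8.20 CPM in any colon type, which was SEMFs. As for Hpse2, trophocytes were the lowest of the small intestinal fibroblast types and SEMFs the highest of the colon types.

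The pathway partners of the 5 genes mostly stayed within 4-fold between the libraries, as most genes did. Of all 13307 genes tested, 256 (1.92%) were past 4-fold towards the small intestine and 316 towards the colon, with a median log2 ratio of 0.17. Among 27 other genes of heparan sulfate synthesis, sulfation and core proteins with enough UMIs, none passed 4-fold towards the small intestine and 1 towards the colon, with a median of 0.12. That gene was Hpse, the active heparanase that cuts heparan sulfate. Hpse had 28.5 CPM in small intestinal and 184 CPM in colon fibroblasts, a log2 ratio of -2.69 (-2.78 to -2.60), so the 2 heparanase genes lay on opposite sides of the tissues. In CD81- FBs Hpse had 53.8 against 249 CPM. The chain polymerase gene Ext1 had 798 against 409 CPM, and the proteoglycan gene Gpc6 had 873 against 487 CPM.

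Among 9 other hemicentin, fibulin and nidogen genes none passed 4-fold in either direction, with a median of 0.38. Hmcn2, the paralog of Hmcn1, had 665 against 222 CPM in fibroblasts, a log2 ratio of 1.58 (1.55 to 1.62), and the basement membrane gene Nid2 had 30.0 against 9.74 CPM. For the syntrophins and the dystrophin complex 12 of 13 other genes lay above 0, as did 8417 of all 13307 genes (63.3%), with a median of 0.93, and 1 passed 4-fold towards the small intestine. That was Dtna, alpha-dystrobrevin, a partner of syntrophins, with 15.8 against 3.25 CPM and a log2 ratio of 2.28. Sntg2 had 14.9 against 5.22 CPM, and Sgcd, delta-sarcoglycan, 642 against 165 CPM. In the angiopoietin group 1 of 9 other genes passed, Angptl7, towards the colon (0.911 against 5.79 CPM), and Angptl2, another secreted member of the family, had 134 against 177 CPM. The median of that group was 0.28.

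Among 6 other genes of oxysterol synthesis and sensing none passed 4-fold, with a median of -0.18. Ch25h, which makes 25-hydroxycholesterol, the substrate of CYP7B1, had 6.62 CPM in small intestinal and 16.7 CPM in colon fibroblasts, a log2 ratio of -1.33 (-1.54 to -1.13). Hsd3b7, the enzyme that acts after CYP7B1 and removes the GPR183 ligand, had 30.8 and 19.97 CPM. Gpr183 itself had 0.216 and 0.260 CPM in fibroblasts.

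Gene span moved with the tissue ratio and belongs beside these values. Of the 13307 genes, 95.6% had a RefSeq span. The median log2 ratio was -0.06 for 3076 genes under 10 kb, 0.15 from 10 to 50 kb, 0.80 for 574 genes from 200 to 500 kb and 0.88 for 162 genes of 500 kb or more. In the longest class 14.8% of genes were past 4-fold towards the small intestine and 4.32% towards the colon. In the shortest class these shares were 1.20% and 2.67%. Genes of 200 kb or more gave 11.7% of all UMIs in small intestinal CD81- FBs and 7.57% in those of the colon. In the same cells Malat1, a nuclear RNA, had 18155 and 13208 CPM, but Neat1, another nuclear RNA, had 174 and 184 CPM. Hpse2 spans 602 kb, Hmcn1 431 kb, Sntg1 938 kb, Cyp7b1 171 kb and Angptl1 22.5 kb. Angptl1 has the shortest span of the 5. Relative to the median of the gene's own span class, the log2 ratio was 3.33 for Hpse2, 5.30 for Hmcn1, 3.21 for Sntg1, 4.48 for Angptl1 and 2.71 for Cyp7b1. Whether unspliced or nuclear RNA has a part in the ratios was not tested, and the use of intronic reads in the counting is not given in the sources used here.

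**Figure D5:**
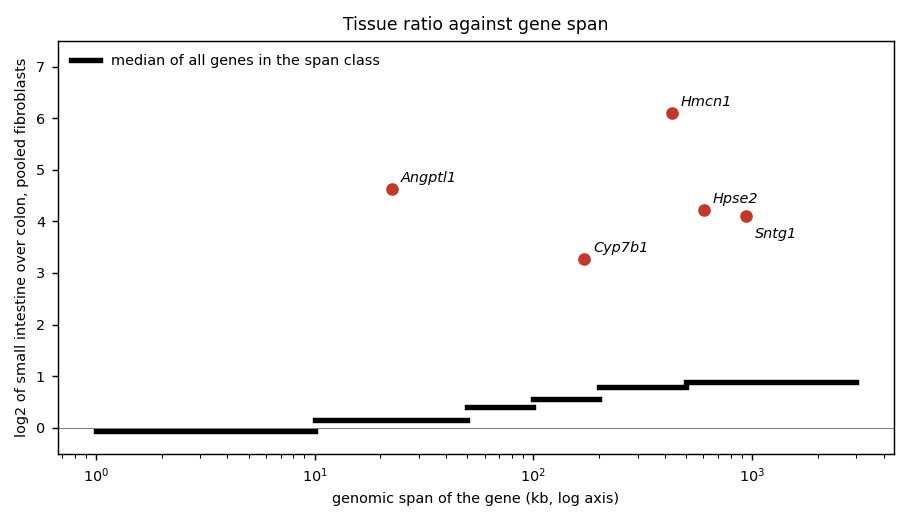
Log2 ratio of small intestine over colon in pooled fibroblasts against the genomic span of the gene (kb, log axis). Black lines are medians of all tested genes in each span class and red points are the 5 genes: the medians rise from -0.06 to 0.88 with span, and all 5 genes lie above them, with Angptl1 at 22.5 kb.

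Within the colon the levels also moved with the sex-linked classes of cells. In colon CD81- FBs Hpse2 had 112 CPM in cells with a Y-linked UMI but no Xist and 72.4 CPM in cells with Xist alone, while in trophocytes it had 25.3 and 72.0 CPM. Hmcn1 likewise had 10.5 and 5.42 CPM in CD81- FBs and 2.39 and 9.96 CPM in trophocytes. Angptl1 in trophocytes had 73.1 and 42.1 CPM. Cyp7b1 had 24.4 and 25.8 CPM in pooled fibroblasts, within counting error. Each of these levels in colon fibroblasts remained below that of the same small intestinal type. The number of animals behind these classes is not known, so they are not replicates.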

How the data were processed

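Members and gene lists were chosen with earlier results of these data known. For each library the authors deposited raw UMI counts per gene and cell, the same values on a natural log scale, and a cell type label per cell. Reads were processed with Cell Ranger 7.1.0 and Seurat 4 on mm10, per the submitters' processing notes; the use of intronic reads and of strand, and the treatment of doublets, are not given in the sources used here. In a check of 918 small intestinal and 825 colon gene rows the deposited natural log values equalled ln(1 + 10000 × UMIs / UMIs of the cell) within 1e-06. All deposited cells were kept and no doublet caller was run. The colon's 3 blood endothelial labels were joined as BECs, and the 6 types of 50 or more cells per library were used.

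UMI counts were summed per type and divided by all UMIs of the type (CPM), with exact Poisson intervals; shares carry exact Clopper-Pearson intervals, and log2 ratios exact conditional binomial intervals (Python 3.11.15, scipy 1.17.1), at the 95% level. A count of 0 was given a limit of 3 counts. Ratios were called past 4-fold among genes reaching 100 UMIs summed over the libraries. Cells were thinned without replacement to 3000 UMIs, leaving out shallower cells. Likeness used genes with at least 50 CPM in 1 of 12 levels. Named genes were the 5 genes, the 3 most like each by level, those whose share differed most by detection, pathway genes past 4-fold and the nearest partners; Ext1, Gpc6, Nid2, Sgcd and Gpr183 were added after their values were seen. Scripts were tested on simulated data. Alternatives were other totals, cell weights, depths and left-out cells. Promoters of Sntg1 and Cyp7b1 were not used here. Of the genes most alike by level, 1 is not reported here.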

Additional observations from a re-analysis of the deposited data

How the results depend on the processing

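All 5 log2 ratios in pooled fibroblasts kept their sign and stayed past 4-fold under each of 9 alternatives, with ranges of 3.33 to 4.22 for Hpse2, 5.30 to 6.14 for Hmcn1, 3.21 to 4.14 for Sntg1, 3.74 to 4.75 for Angptl1 and 2.71 to 3.34 for Cyp7b1. Values outside the counting interval are given here, and the causes were not tested. Relative to the median gene the ratios were 4.04 (Hpse2), 5.92 (Hmcn1), 3.92 (Sntg1), 4.45 (Angptl1) and 3.097 (Cyp7b1), and relative to the median gene of the same span class, chosen after seeing the data, 3.33, 5.30 and 3.21 for the first 3 of these genes and 2.71 for Cyp7b1. With equal weight to the 3 fibroblast subtypes they were 3.98 (Hpse2), 5.70 (Hmcn1), 3.45 (Sntg1), 3.74 (Angptl1) and 3.12 (Cyp7b1). Against colon cells that had a Y-linked UMI and lacked Xist they were 4.02 (Hpse2), 5.78 (Hmcn1) and 4.13 (Angptl1). Hpse2 alone also moved to 4.17 without mitochondrial, ribosomal and haemoglobin genes in the total, 4.13 as a mean over cells of the deposited values, 4.15 without the 6% of cells with the most UMIs and 4.14 after thinning.

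In small intestinal CD81- FBs the share of cells with at least 2 UMIs was 94.5% for Hpse2, 75.9% for Hmcn1, 43.5% for Sntg1, 24.5% for Angptl1 and 44.4% for Cyp7b1, and at 3000 UMIs per cell the shares with 1 or more were 96.0%, 76.2%, 44.5%, 28.8% and 46.7%. The difference in Angptl1 between cells with and without Hpse2, -9.89 percentage points at equal depth, was 5.20 without thinning. Hmcn1 by Hpse2 ran from 23.3 to 39.8 points, Sntg1 by Hmcn1 from 11.5 to 22.1 and Sntg1 by Hpse2 from 5.42 to 19.2 over the settings tried. Chosen after seeing the data, 2 alternatives moved the log2 ratio of Hpse2 in LECs from 2.03 to 3.09, without the cell with the most Hpse2 UMIs in each library, and to 0.42, without cells with 3 or more of the 5 genes. The alternative that left out SMC label cells with 3 or more fibroblast markers gave no ratio, since it left 10 small intestinal cells and 2 colon cells, the latter without a UMI of any of the 5 genes. No paired analysis was possible because each tissue had 1 library. With 1 library per tissue, depth sets only the counting error. The colon levels of Angptl1 outside trophocytes rest on 23 UMIs or fewer. So do the colon levels of all 5 genes in BECs, and of all but Hmcn1 in SMCs and LECs.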
